A study of Mus musculus with 6 samples.

Results

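The genes described here are 10 that encode leukocyte integrin chains and adhesion molecules: the integrin α chains Itgam, Itgax, Itga4 and Itga6, the β chains Itgb2, Itgb1 and Itgb7, the immunoglobulin-superfamily molecules Icam1 and Vcam1, and the hyaluronan receptor Cd44. They were taken by name from a table of 57010 genes, and each name matched 1 row. Transcript counts came from immune cells purified from mouse hearts, with 3 libraries in each of 2 groups. The mice (genotype label Ova DTG, with ovalbumin expression restricted to the heart) had all received naive ovalbumin-specific OTI CD8 T cells, 100000 per mouse unless otherwise indicated. One group, labelled OTI + ICI, was given immune checkpoint inhibitors, 200 µg of antibody against CTLA-4 (clone 9D9) and 200 µg of antibody against PD-1. The other, labelled OTI + Isotype, is the isotype control, whose antibody and dose the labels do not give. They are called ICI and isotype libraries below, after their labels. The sample titles name myocarditis in both groups, all 6 libraries carry 1 batch date, and ages and any pooling of animals are not given in the labels. The gate was CD45-positive and CD90.2-negative, labelled as excluding T cells.

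Integrins are receptors of paired α and β chains that hold leukocytes to vessel walls, to other cells and to matrix. β2 integrins, such as CD11b/CD18 (Itgam with Itgb2) and CD11c/CD18 (Itgax with Itgb2), bind ICAM-1 and complement fragments and serve adhesion, migration and phagocytosis of myeloid cells. The α4 chain pairs with β1 to bind VCAM-1 or with β7 to bind MAdCAM-1, and α6 pairs with β1 to bind laminin. In inflamed heart tissue the same families guide monocytes out of the blood and anchor macrophages in place.

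Total counts ran from 21528274 to 30736316 per library and were higher in each isotype library than in any ICI library. Ptprc, which encodes CD45, lay between 1028 and 1341 CPM (counts scaled by library total and TMM factor, as in all values here) and Thy1, which encodes CD90.2, was at most 0.0842 CPM, so the sort antigens matched the gate. T cell markers summed to 11.2 to 20.7 CPM in the ICI libraries and 2.2 to 4.72 CPM in the isotype libraries. Of 5 tested, 2 were called higher and 1 lower. Replicate 3 of each group held more Xist than Y-linked counts (2786 against 6 under ICI, 1844 against 130 under isotype) and the other libraries the reverse. The 2 groups differed broadly. The edgeR quasi-likelihood test called 68.9% of 14575 genes, with an adjusted p threshold of 0.05. Of all genes, 35.0% were called higher in the ICI libraries and 33.9% lower, and the groups did not overlap for 73.8%. The split of 5102 higher and 4938 lower became 6155 and 3849 with upper-quartile factors and 6255 and 3724 with library totals alone. Markers of resident macrophages, 8 of 8 called higher, summed to between 7669.6 and 8805 CPM in the ICI libraries and between 271 and 350.1 CPM in the isotype libraries. Markers of monocytes, 6 of 8 called lower, summed to between 1280.3 and 1409 CPM against 4748 to 10318 CPM. In these bulk libraries fewer cells of a type and less RNA per cell cannot be told apart. Direction throughout rests on the group labels.

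All 10 genes passed the filter on low counts. The test called 7 of them, beside 68.9% of all genes tested: 2 were higher in the ICI libraries (35.0% of all genes) and 5 lower (33.9%). Against a change of 1.5-fold it called 3, beside 37.9% of all genes, and the values of 7 did not overlap between the groups, beside 73.8% of all genes. A share of calls this close to the background is not particular to these genes. Their median log2 fold change was -0.30, where the median of all genes tested was 0.03. Itgb2 and Itgb7 were about 3-fold lower, Itgam, Itgax and Vcam1 were lower by smaller amounts, Itga6 and Itgb1 were higher, and Itga4, Icam1 and Cd44 were not called.

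**Figure D1:**
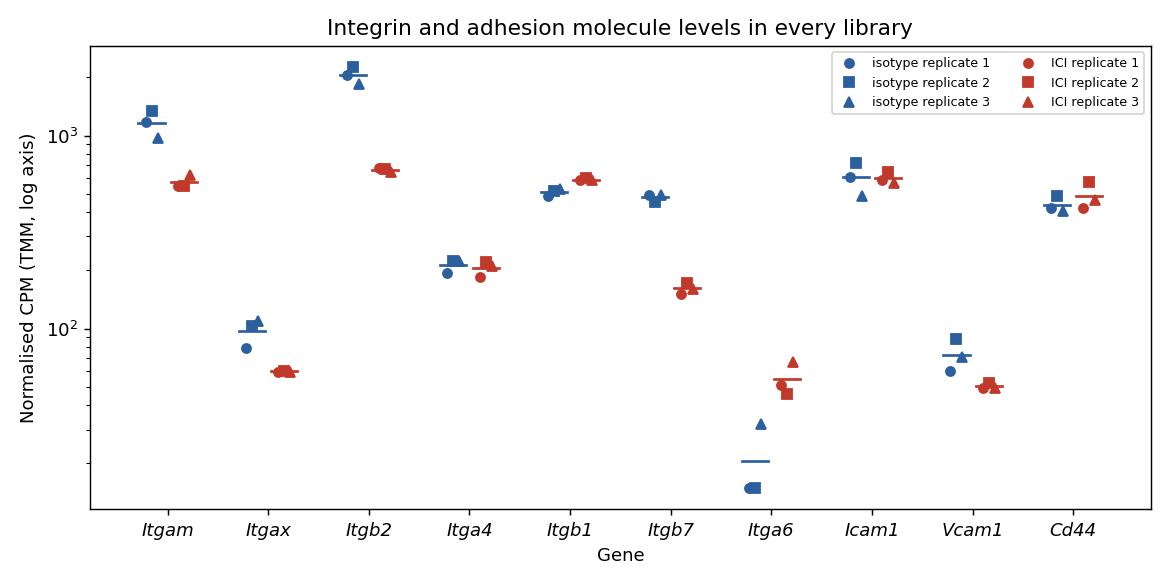
Normalised CPM on a log axis for the 10 genes, with 1 point per library (blue for isotype, red for ICI, shape for the replicate number) and a bar at the mean of 3 libraries. Itgb2 and Itgb7 show the widest separation towards isotype and Itga6 the widest towards ICI, while Itga4, Icam1 and Cd44 overlap.

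Among the β2 integrins, Itgb2 (ENSMUSG00000000290), the β chain that every CD11/CD18 integrin shares, was at 682, 669 and 648 CPM in ICI replicates 1, 2 and 3 and at 2068, 2264 and 1844 CPM in the isotype libraries. The lowest isotype library stood far above the highest ICI library. The difference amounted to a 3.09-fold lower level under ICI (log2 fold change -1.63, SE 0.10, 95% interval -1.85 to -1.40, edgeR adjusted p = 7.16e-07). Itgam (ENSMUSG00000030786), the CD11b α chain of monocytes, macrophages, neutrophils and natural killer cells, was at 545, 546 and 622 CPM in the ICI libraries and 1169.7, 1341 and 968 CPM in the isotype libraries. The groups did not overlap, and isotype replicate 3 was the lowest of its group. Itgam was 2.03-fold lower (log2 fold change -1.02, SE 0.12, edgeR adjusted p = 5.32e-05). The summed monocyte markers were also lowest in isotype replicate 3 among the isotype libraries, at 4748 CPM against 7835 and 10318 CPM in replicates 1 and 2. This pattern was not particular to monocytes. In isotype replicates 1, 2 and 3 the summed neutrophil markers were 509, 534 and 416 CPM, and those of patrolling monocytes 621, 659 and 588 CPM. Plasma cell and endothelial sums were also lowest in isotype replicate 3, whereas the conventional dendritic cell sum was highest there. The part of any of these cells in the Itgam difference was not tested.

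Itgax (ENSMUSG00000030789), the CD11c α chain of dendritic cells and some macrophages, was at 59.6, 60.5 and 59.7 CPM in the ICI libraries and at 79.3, 103 and 110 CPM in the isotype libraries. The 3 ICI libraries were nearly equal (coefficient of variation 0.826%), whereas the isotype libraries varied by 16.5%. Itgax was 1.63-fold lower (log2 fold change -0.70, SE 0.12, edgeR adjusted p = 0.00043), a call that did not hold against a change of 1.5-fold (adjusted p = 0.137). Conventional dendritic cell markers went the other way, 7 of 8 called higher and 1 lower, with sums of 373 to 515 CPM in the ICI libraries and 83.8 to 141 CPM in the isotype libraries. No marker was at 0 throughout a group, although Cd209a was at most 0.132 CPM in the isotype libraries. The part of dendritic cell RNA in the Itgax level was not tested.

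Itgam and Itgax are direct neighbours on mouse chromosome 7, with 0 protein-coding genes between them in RefSeq order, and Itgad follows Itgax directly. The Itgam to Itgax ratio of length-scaled levels was 7.91, 7.80 and 9.00 in the ICI libraries and 12.7, 11.3 and 7.60 in the isotype libraries. Isotype replicate 3 lay below all ICI values and the other isotype libraries above them (log2 difference -0.32, exact two-sided permutation p = 0.4). Of the other CD11 chains, Itgal, the CD11a chain of lymphocytes and monocytes, was 2.08-fold lower (172 ± 8.18 CPM under ICI against 358 ± 29.7 CPM under isotype, SD, n = 3 each, edgeR adjusted p = 4.8e-06), and Itgad stayed at or under 0.379 CPM in all 6 libraries and was not tested.

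The start regions of these neighbours are printed because the genes sit side by side and both were called lower, and that of Itgb7 because it was the β chain with the next largest fall. RefSeq (build GRCm38.p6, older than the GRCm39 build named in the submitters' processing notes) gave a region of 250 bases before to 50 after the start for 7 of the 10 genes; Itgb2, Itga6 and Vcam1 are named only. Capitals mark the letters AGGAAG (an ETS factor core), TGANTCA (AP-1) or GGGCGG (Sp1) on either strand, as a description of letters and not of binding.
Itgam, chr7:128062390-128062689, plus strand: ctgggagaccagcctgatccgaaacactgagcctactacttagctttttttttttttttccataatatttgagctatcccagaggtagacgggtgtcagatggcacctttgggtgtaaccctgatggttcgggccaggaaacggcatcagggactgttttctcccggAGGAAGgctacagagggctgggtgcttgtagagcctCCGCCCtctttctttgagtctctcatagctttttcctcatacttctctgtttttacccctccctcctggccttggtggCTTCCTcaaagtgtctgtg
Itgax, chr7:128129300-128129599, plus strand: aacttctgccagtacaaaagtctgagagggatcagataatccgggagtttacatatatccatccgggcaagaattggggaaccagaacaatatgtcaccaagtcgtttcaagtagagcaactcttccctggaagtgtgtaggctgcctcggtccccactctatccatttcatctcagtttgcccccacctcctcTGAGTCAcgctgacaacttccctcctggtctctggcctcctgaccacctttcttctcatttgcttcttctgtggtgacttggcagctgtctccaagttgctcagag
Itgb7, chr15:102231886-102232185, minus strand: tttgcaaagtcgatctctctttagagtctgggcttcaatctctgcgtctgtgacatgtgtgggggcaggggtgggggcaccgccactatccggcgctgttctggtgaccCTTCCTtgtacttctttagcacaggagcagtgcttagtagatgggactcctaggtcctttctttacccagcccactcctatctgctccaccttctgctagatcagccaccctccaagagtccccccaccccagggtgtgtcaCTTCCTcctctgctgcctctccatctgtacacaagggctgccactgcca
The Itgam region held AGGAAG at -83 and, on the other strand, at 32 bases from the start, together with GGGCGG on the other strand at -47. The Itgax region held neither of these but TGANTCA at -56. The Itgb7 region held AGGAAG on the other strand at -141 and at 2. Over all 32851 RefSeq start regions of this length, 35.4% held AGGAAG, 35.7% GGGCGG and 7.81% TGANTCA, and the motifs did not overlap each other in these 3 regions. GC content was 50.3%, 50% and 56.3% for Itgam, Itgax and Itgb7, against a median of 52.7%.

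Itgb2 exceeded the summed α chains in every library, by a smaller factor in the ICI libraries. Per transcript length, Itgal, Itgam, Itgax and Itgad together came to 0.708, 0.737 and 0.829 of Itgb2 in the ICI libraries and to 0.478, 0.507 and 0.486 in the isotype libraries. The groups did not overlap (p = 0.1 in a two-sided exact permutation test, which cannot give less with 3 libraries a side). Itgam made up 70.3% to 73.4% of this α chain sum in the ICI libraries and 68.5% to 75.1% in the isotype libraries (exact p = 0.8). The Itgam to Itgb2 ratio was 1.53-fold higher and the Itgax to Itgb2 ratio 1.91-fold higher in the ICI libraries, both without overlap (exact p = 0.1 each).

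**Figure D2:**
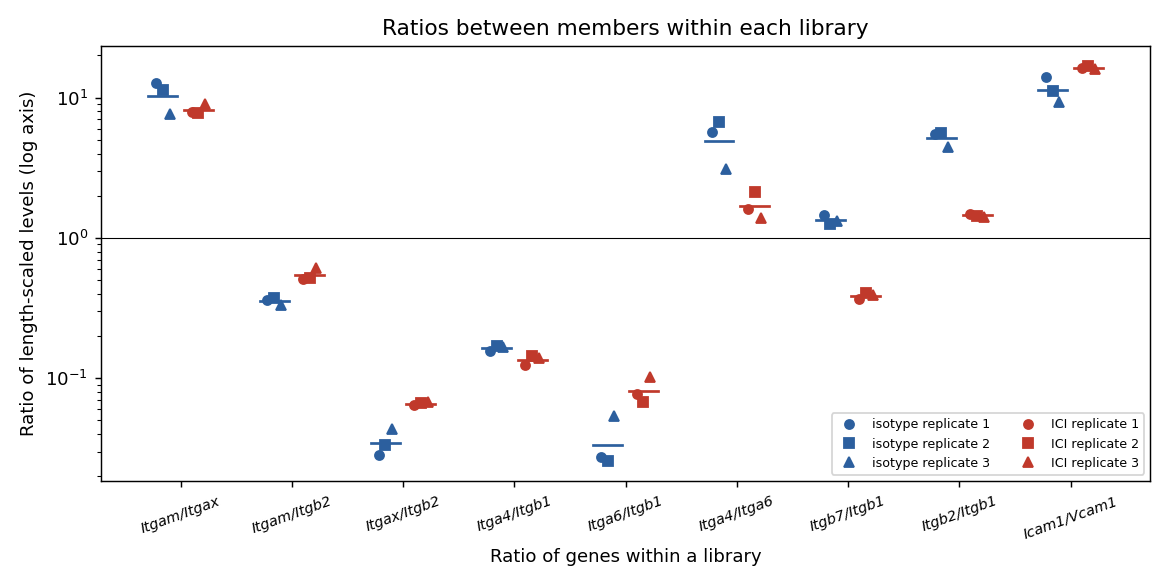
Ratios of length-scaled levels of 2 genes within each library, on a log axis (blue for isotype, red for ICI, shape for the replicate number, bar at the geometric mean). The Itgb2 to Itgb1 and Itgb7 to Itgb1 ratios separate the groups most, and the Itgam to Itgax ratio overlaps.

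Itgb1 and Itgb7, the alternative partners of the α4 chain, moved apart. Itgb7 (ENSMUSG00000001281), which also pairs with αE on intestinal lymphocytes and is known on mast cells, was at 151, 172 and 161 CPM in the ICI libraries and 494, 452 and 492 CPM in the isotype libraries. Both groups were tight and far apart. Itgb7 was 2.97-fold lower (log2 fold change -1.57, SE 0.09, 95% interval -1.77 to -1.38, edgeR adjusted p = 3.76e-07). Itgb1 (ENSMUSG00000025809), the most widely shared β chain, was at 587, 602 and 585 CPM in the ICI libraries and 484, 516 and 528 CPM in the isotype libraries. The groups did not overlap but lay close together. Itgb1 was 1.16-fold higher (log2 fold change 0.21, SE 0.08; adjusted p = 0.035 with edgeR), and this call was lost when any single library was left out (adjusted p from 0.0555 to 0.193), with no filter (0.0663) and with a length or GC correction (0.195 and 0.179).

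Itga4 (ENSMUSG00000027009), the α4 chain, was at 186, 221 and 209.7 CPM in the ICI libraries and 194, 225 and 225 CPM in the isotype libraries. The ranges overlapped. The log2 fold change was -0.06 (SE 0.10, 95% interval -0.28 to 0.15, edgeR adjusted p = 0.578), so a difference of more than 0.28 on the log2 scale either way lay outside the interval. Its transcript, 9767 bases, is the longest of the 10, and corrections for a trend with transcript length or GC content, added after the data were seen, gave -0.45 (adjusted p = 0.00213) and -0.31 (0.0172). The Itgb7 to Itgb1 ratio was 0.366, 0.407 and 0.391 in the ICI libraries and 1.45, 1.25 and 1.33 in the isotype libraries, a 3.45-fold difference with Itgb1 the higher of the pair per length in each ICI library and Itgb7 in each isotype library. The Itga4 to Itgb1 ratio differed by 1.21-fold, from 0.124, 0.143 and 0.140 to 0.157, 0.171 and 0.166.

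Markers of lymphoid and mast cells differed in both directions. B cell markers were called higher for 8 of 8 genes (228 to 724 CPM under ICI, 4.59 to 10.2 CPM under isotype) and mast cell and basophil markers for 6 of the 7 tested (32.2 to 82.7 CPM against 14.2 to 27.4 CPM), while natural killer markers were called higher for 7 of 8 although their sum was lower, 99.1 to 137 CPM against 231 to 233 CPM, through Klrk1. The summed markers of group 2 innate lymphoid cells (3 called higher and 1 lower of 5 tested) were 74.9 to 96.1 CPM under ICI and 178 to 179.8 CPM under isotype, with Il13 at 0 in both groups and Il5 at 0 under isotype. Those of plasma cells (2 called higher and 2 lower of 6) were 309.5 to 332 CPM under ICI and 397 to 452 CPM under isotype, with Tnfrsf17 at 0 under isotype. Both sums were lower under ICI. The median log2 fold change of the tested markers was nonetheless positive, at 1.98 for group 2 innate lymphoid cells and 0.89 for plasma cells. The part of these cells in the Itgb7 level was not tested. Itgae, the αE chain, was not called (14.1 ± 2.76 CPM under ICI and 11.8 ± 4.20 CPM under isotype, SD, n = 3 each, log2 fold change 0.24, edgeR adjusted p = 0.443).

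Itga6 (ENSMUSG00000027111), the laminin-binding α6 chain, was at 51.1, 46.0 and 67.1 CPM in the ICI libraries and 15.0, 14.9 and 32.1 CPM in the isotype libraries. Replicate 3 was the highest of each group, and the groups did not overlap. Itga6 was 2.64-fold higher (log2 fold change 1.40, SE 0.36, 95% interval 0.51 to 2.29, edgeR adjusted p = 0.0153), with the widest interval of the 10 genes. The call was lost with no filter (adjusted p = 0.0533) and against a 1.5-fold change (0.0519), and the log2 fold change was 1.85 without isotype replicate 3 (adjusted p = 2.8e-05) and 1.48 with a term for sex (adjusted p = 1.52e-05). Several cell types outside the macrophage lineage are known to carry α6. Of these, B cell markers were at their highest in ICI replicate 3, at 724 CPM against 228 and 287 CPM in ICI replicates 1 and 2, and in isotype replicate 3, at 10.2 CPM against 4.59 and 5.99 CPM. This pattern was not particular to B cells. The summed markers of conventional dendritic cells, mast cells and basophils, eosinophils, T cells and platelets were also highest in replicate 3 of each group. Those of natural killer cells were not. Of 8 endothelial markers tested (9 listed), 6 were called higher and 1 lower; the sum was 33.2 to 34.2 CPM under ICI and 127 to 201 CPM under isotype, mostly Flt1 in the latter, and Cldn5 was under 0.5 CPM in every library. Of 4 platelet markers tested (8 listed), 2 were called higher, and the sum of 391 to 509.7 CPM against 7.41 to 9.03 CPM was mostly Pf4, while Itga2b, the platelet integrin chain, was at most 0.715 CPM and Gp1bb was at 0 in the ICI libraries. The part of these cells in the Itga6 level was not tested.

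The ligands Icam1 and Vcam1, both textbook targets of NF-kB in endothelium, differed in their calls: Vcam1 was called lower and Icam1 was not called. Icam1 (ENSMUSG00000037405), the ligand of CD11a and CD11b integrins, was at 585, 646 and 569 CPM in the ICI libraries and 613, 724 and 487 CPM in the isotype libraries. The isotype libraries lay on both sides of the ICI libraries. The log2 fold change was -0.02 (SE 0.14, 95% interval -0.32 to 0.28, edgeR adjusted p = 0.905). Vcam1 (ENSMUSG00000027962), the ligand of α4β1, was at 49, 52.4 and 49.1 CPM in the ICI libraries and 60.1, 88.5 and 71.0 CPM in the isotype libraries. The groups did not overlap. Vcam1 was 1.46-fold lower (log2 fold change -0.54, SE 0.13; edgeR, adjusted p = 0.00419), but not against a 1.5-fold change (adjusted p = 0.61). The Icam1 to Vcam1 ratio per length was 16.3, 16.9 and 15.9 in the ICI libraries and 14.0, 11.2 and 9.39 in the isotype libraries, 1.44-fold apart and without overlap (exact two-sided permutation p = 0.1).

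The Icam1 start region is shown because the gene was not called while its β2 receptor chains were called lower; capitals mark GGAANTTCC, the core letters of the NF-kB site known in the human gene, and GGGCGG on the other strand.
Icam1, chr9:21015690-21015989, plus strand, GRCm38.p6: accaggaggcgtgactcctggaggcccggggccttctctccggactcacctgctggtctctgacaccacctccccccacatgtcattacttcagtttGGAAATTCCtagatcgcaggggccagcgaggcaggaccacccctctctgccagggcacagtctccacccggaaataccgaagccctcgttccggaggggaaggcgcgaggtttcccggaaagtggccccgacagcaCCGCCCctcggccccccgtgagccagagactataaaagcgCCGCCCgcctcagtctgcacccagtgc
GGAANTTCC stood at -153 from the start and occurred in 0.928% of the 32851 start regions. GGGCGG stood on the other strand at -17 and at 24. The standard NF-kB consensus, found in 8.46% of the regions, was not in these letters. GC content was 64.7%.

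Cd44 (ENSMUSG00000005087), the hyaluronan receptor that also marks activated leukocytes, was at 421, 573 and 464 CPM in the ICI libraries and 419.7, 484 and 408 CPM in the isotype libraries. The ranges overlapped, and ICI replicate 2 was the highest library. The log2 fold change was 0.15 (SE 0.12, 95% interval -0.12 to 0.43, edgeR adjusted p = 0.29). It was called higher with upper-quartile factors (0.33, adjusted p = 0.0323) and with library totals alone (0.36, adjusted p = 0.0225), which moved the median of all genes to 0.21 and 0.23.

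Per transcript length the order of the 10 genes differed between the groups. In the isotype libraries Itgb2 led at 693 CPM per kilobase (CPM divided by the longest basic transcript), followed by Itgam at 248 and Icam1 at 239.8 CPM per kilobase, which overlapped, then Itgb7 at 179, Itgb1 at 134 and Cd44 at 77.9 CPM per kilobase. Itgax, Itga4 and Vcam1 came to 24.1, 22 and 21.1 CPM per kilobase; Itgax overlapped Itga4 and Itga4 overlapped Vcam1. Itga6 came last at 4.79 CPM per kilobase and did not overlap Vcam1. In the ICI libraries Icam1 at 237 and Itgb2 at 224 CPM per kilobase overlapped at the top, followed by Itgb1 at 155, Itgam at 122, Cd44 at 86.6, Itgb7 at 60.1 and Itga4 at 21.0 CPM per kilobase without overlap between neighbours. Itgax, Vcam1 and Itga6, at 14.8, 14.5 and 12.7 CPM per kilobase, overlapped at the bottom. These levels assume 1 transcript per gene, and Cd44 in particular is known for many splice forms.

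**Figure D3:**
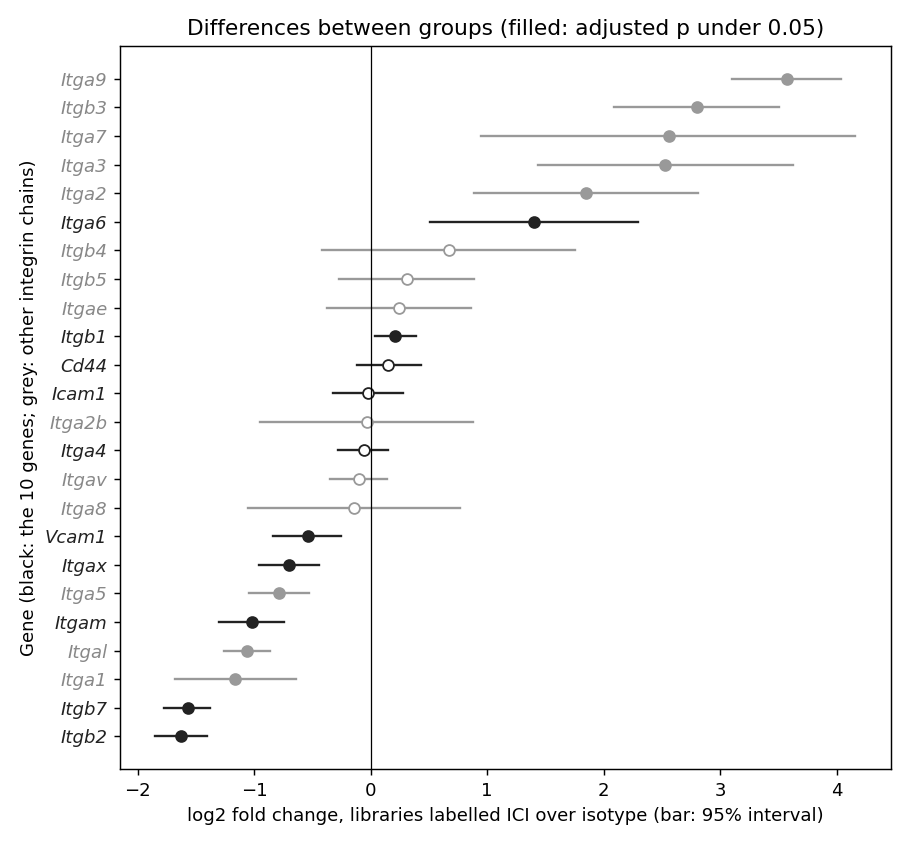
Log2 fold changes (ICI libraries over isotype) with 95% intervals from the edgeR fit for the 10 genes (black) and the 14 other integrin chains tested (grey); filled points passed the adjusted p threshold. Itgb2 has the lowest value, -1.63, and Itga9 the highest, 3.57.

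Of 19 other integrin chains, 14 were tested, 5 were called higher and 3 lower (57.1% called, beside 68.9% of all genes), with a median log2 fold change of 0.28. Itga9, which pairs with β1, was 11.9-fold higher in the ICI libraries (158 ± 2.28 CPM against 13.3 ± 4.15 CPM, SD, n = 3 each here and below, edgeR adjusted p = 2.65e-06). Itga5, the fibronectin-binding partner of β1, was 1.73-fold lower (153 ± 4.94 against 263 ± 44.5 CPM, adjusted p = 0.000191) and Itga1, a collagen-binding partner of β1, 2.23-fold lower (6.87 ± 1.97 against 15.4 ± 3.22 CPM, adjusted p = 0.00176). Itgav, a partner of several β chains, was not called (log2 fold change -0.10, adjusted p = 0.424). The β1 partners named here thus differed in both directions while Itgb1 itself differed by 1.16-fold.

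Genes that regulate integrin activation, up or down, or tie integrins to actin were called for 30 of the 34 tested (88.2%, beside 68.9% of all genes). Of these, 11 were higher and 19 lower, with a median log2 fold change of -0.38 over the genes tested. Scaling by library totals gave 13 and 12. Parvg, the parvin of blood cells, was 4.59-fold lower (48.9 ± 6.97 against 225 ± 14.0 CPM, adjusted p = 2.7e-07). Fermt3, the blood-cell kindlin that activates β integrins, named after its values were seen, was at 296, 281 and 275 CPM under ICI and 559.7, 562 and 546 CPM under isotype. It did not overlap (log2 fold change -0.97, adjusted p = 3.49e-06). Ptk2, focal adhesion kinase, was 10.3-fold higher (33.9 ± 0.336 against 3.29 ± 0.406 CPM, adjusted p = 2.98e-08), and Tln2, the talin better known outside blood cells, was at 39.4 ± 5.20 against 0.203 ± 0.146 CPM (log2 fold change 7.57, adjusted p = 4.79e-08). Cardiomyocyte markers were called higher for 7 of 7 tested (8 listed), with sums of 32.5 to 41.5 CPM under ICI and 5.82 to 13.4 CPM under isotype. Fibroblast and mural cell markers were called higher for 8 of 9. The part of these cells, or of resident macrophages, in the Ptk2 and Tln2 levels was not tested.

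Of 7 tested proteases listed as shedding adhesion molecules, 5 were called lower and 1 higher (85.7% called). Of all genes, 68.9% were called and 33.9% were lower. Mmp14, a membrane matrix metalloproteinase known to cleave CD44, was 12.2-fold lower (26.3 ± 6.18 against 321 ± 24.1 CPM, adjusted p = 3.1e-07), Adam8 3.37-fold (adjusted p = 3.06e-06), Adam17, the sheddase of TNF, 1.52-fold (adjusted p = 8.78e-05) and Adam9 1.46-fold (adjusted p = 0.000244). Against a 1.5-fold change the calls of Adam17 (adjusted p = 0.362) and Adam9 (0.71) were lost. Tetraspanins, which organise integrins in the membrane, were called higher for 4 and lower for 2 of 9 (66.7% called, beside 68.9% of all genes). Cd81 was 8.5-fold higher (954 ± 69.1 against 112 ± 40.0 CPM, adjusted p = 6.2e-05), Cd63 3.47-fold and Cd37 2.78-fold higher (adjusted p = 2.76e-05 and 6.38e-05), and Tspan32 1.57-fold lower (adjusted p = 4.62e-05, and 0.159 against a 1.5-fold change).

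Genes around CD44 and hyaluronan were called higher for 6 and lower for 3 of 13 tested (69.2% called, beside 68.9% of all genes). Lyve1, a second hyaluronan receptor and a resident macrophage marker, was at 540.2 ± 59.1 against 1.54 ± 0.268 CPM (log2 fold change 8.44, adjusted p = 1.03e-09), in contrast to Cd44. Stab1 was 4.54-fold higher (adjusted p = 4.07e-07), the hyaluronidase Hyal2 2.36-fold higher (adjusted p = 7.9e-05), and Tnfaip6, which modifies hyaluronan, 2.44-fold lower (adjusted p = 0.000443). Lyve1 also belongs to the resident macrophage list given above, and the part of that cell type in these genes was not tested.

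Matrix and plasma ligands of integrins were called higher for 6 and lower for 3 of 11 tested (81.8% called, beside 68.9% of all genes). Spp1, the α4 and αv ligand osteopontin, was 5.7-fold lower (59.8 ± 11.8 against 340.5 ± 96.8 CPM, adjusted p = 0.000165) and Emilin1, an α4β1 ligand, 3.67-fold lower (adjusted p = 1.47e-07). Mfge8, which bridges apoptotic cells to αv integrins, was 7.29-fold higher (46.5 ± 6.61 against 6.34 ± 1.23 CPM, adjusted p = 5.07e-07), and the basement membrane gene Nid1 20.3-fold higher (adjusted p = 0.00054; log2 fold change 5.35 in place of 4.34 without isotype replicate 2). Fibroblast and mural cell markers were called higher for 8 of 9 genes, with sums of 63.6 to 194 CPM under ICI and 11.7 to 15.8 CPM under isotype, and their part in the matrix genes was not tested.

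Selectin genes and the enzymes that make their ligands were called higher for 3 and lower for 2 of 9 tested (55.6% called, beside 68.9% of all genes). Gcnt1, a branching enzyme of selectin ligands, was 2.38-fold higher (adjusted p = 0.000702) and the fucosyltransferase Fut4 2.36-fold lower (adjusted p = 5.44e-05). Other immunoglobulin-superfamily molecules were listed together with Cd99l2, of the separate CD99 family. Of the 11 tested in this list, 6 were called higher and 2 lower (72.7% called, beside 68.9% of all genes). The junctional molecule F11r was 2.9-fold lower (adjusted p = 7.66e-06). Cd99l2 was 3.47-fold, Cd226 2.1-fold and Alcam 1.53-fold higher (adjusted p = 1.94e-06, 0.000815 and 0.00659), and the call of Cd226 was lost with the GC correction (0.0515) and that of Alcam with the length correction (0.0796) and against a 1.5-fold change (0.394).

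**Figure D4:**
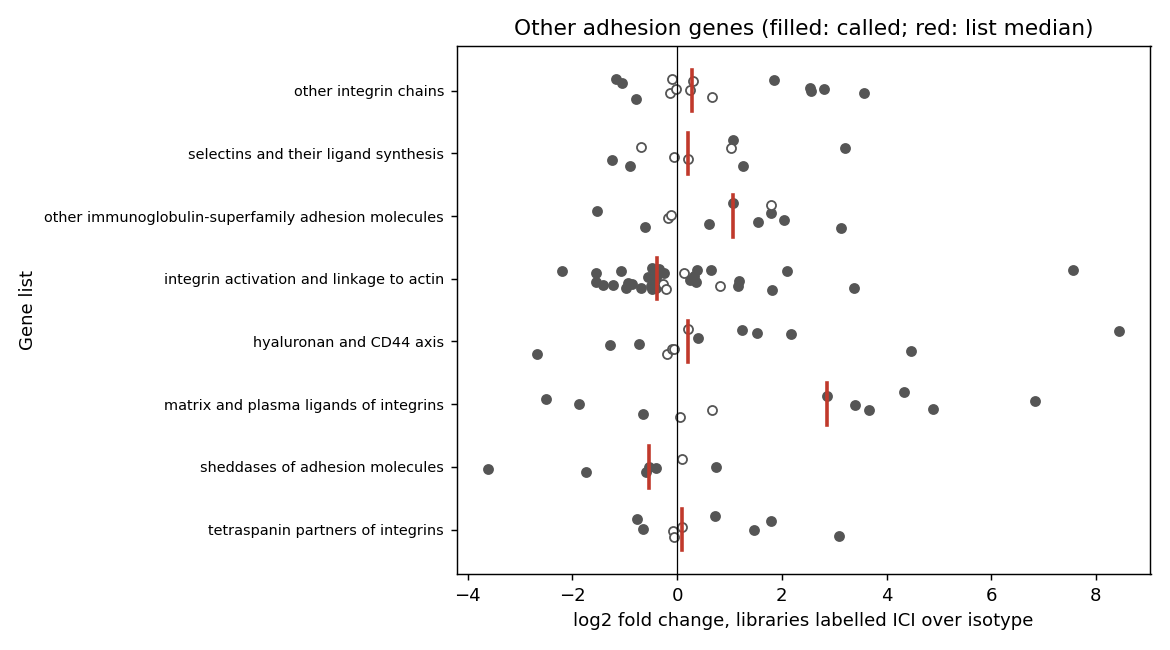
Log2 fold changes of the tested genes of 8 lists of other adhesion genes (filled points were called, the red bar is the list median, vertical scatter is for display). The list medians run from -0.54 for sheddases to 2.87 for matrix and plasma ligands, and every list holds called genes on both sides of 0.

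Over the 8 lists, 81 of 108 tested genes were called (75%), 42 higher and 39 lower, beside 68.9% of all genes. The split became 51 and 31 when upper-quartile factors were used, and 51 and 29 when libraries were scaled by their totals.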

How the data were processed

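The values the authors deposited are raw counts, not normalized, of 57010 Ensembl genes in 6 libraries. Per the labels' protocols, non-directional SMART-seq V4 libraries were sequenced as read pairs. STAR 2.7.10a, Salmon 1.10.1 and GRCm39 appear, without roles, in the submitters' processing notes; annotation release and strand setting: not given in the sources used here. Columns were tied to samples by library name, and symbols (52029 identifiers, 91.3%) were looked up by Ensembl identifier.

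Group differences were tested on the counts by edgeR 4.0.16 quasi-likelihood (R 4.3.3, limma 3.58.1; TMM factors, robust, filterByExpr with a minimum count of 10), which kept 14575 genes, with Benjamini-Hochberg adjustment over all of them. The test was also run on simulated counts in which few genes changed, equally in both directions. That setting differs from these data, where 68.9% of genes were called. It therefore does not check the scaling or the error rate here. SE came from the fold change and F. Transcript lengths came from GENCODE M21 (GRCm38). Exons of Itgam, Itga4, Icam1 and Vcam1 overlap Gm49368, Cerkl, Gm47079 and Gm43109, in that order. The overlapping genes held 866, 1042, 545 and 0 counts over all libraries, against 132177, 31980, 91148 and 9381. Gm49368 lies on the same strand as Itgam, so strand would not separate reads of their overlap. The others lie on the opposite strand, and without strand such reads cannot be told apart. Ratios within a library were compared with exact permutation tests, which cannot go below p = 0.1 (9 ratios, Benjamini-Hochberg adjusted p at least 0.113). Alternatives were DESeq2 1.42.0, limma-voom, other scaling factors and filters, a replicate block, each library left out, replicates 1 and 2 alone, and a test against a 1.5-fold change (glmTreat); a sex term, the legacy fit and length and GC corrections (lowess span 0.3) were chosen after seeing the data. The genes and lists were chosen with earlier results of these data known. From each list up to 4 called genes with the smallest p and at least 10 CPM in the higher group are named, with the 10 genes, Ptprc, Thy1, Itgal, Itgad, Itga5, Itgav and Itgae; others are said to be outside this rule or are cell type markers. Some genes that the rule names are not reported here. The labels call the libraries biological replicates. No pair within a group agreed within sampling noise (chi-square per degree of freedom 12.6 to 33.8).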

Additional observations from a re-analysis of the deposited data

How the results depend on the processing

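Itgb2, Itgb7 and Itgam kept direction and call under all 21 alternatives (log2 fold changes -1.72 to -1.42, -1.62 to -1.37 and -1.21 to -0.81), and Itgax and Vcam1 under all but the test against a 1.5-fold change. Against that fold 3 of the 10 genes were called, 0 higher and 3 lower, and 5520 genes in all (3110 higher, 2410 lower); of the other adhesion genes 31 were then higher and 20 lower. The count of the 10 genes called higher, 2, was 0 with no filter, 1 with the length correction, 1 with the GC correction, 1 with replicates 1 and 2 alone and 1 to 1 when each library was left out. It was 3 with upper-quartile factors and with library totals alone. The count called lower, 5, was 6 with the length correction and with the GC correction. The uncalled genes changed sign near 0. Itga4 was 0.12 with upper-quartile factors, 0.14 with library totals alone, 0.02 with the strict filter (50 counts in 3 libraries) and -0.15 to 0.00 with each library left out (0.00 without ICI replicate 1). Icam1 was 0.16, 0.19 and 0.07 under the first 3 of these settings, 0.00 and 0.19 with the length and GC corrections, and -0.18 to 0.12 with each library left out (0.03 without ICI replicate 3, 0.12 without isotype replicate 2). Cd44 was -0.10 with the length correction. Itgav was 0.08 and 0.10 with upper-quartile factors and library totals, and Ptprc -0.06 and -0.02 with the length and GC corrections. Itgav was called lower with the length correction (-0.42, adjusted p = 0.00687), and Ptprc higher with upper-quartile factors (0.34, 0.0102), library totals (0.36, 0.00551) and the strict filter (0.25, 0.0449). The cause of these shifts was not tested. The replicate numbers are shared by the groups, but same-numbered libraries deviated together only weakly (correlations 0.07, 0.13 and 0.18), and isotype replicate 1 correlated best with ICI replicate 2 (0.12), so they were not taken as pairs; with a replicate block 7 of the 10 genes were called (2 higher, 5 lower) and 9991 in all. With 3 against 3 libraries no ratio could pass the threshold.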
